A study of Mus musculus with 6 samples.

Results

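The CC chemokines described here are 9 genes that code for secreted ligands of the CC family: Ccl2, Ccl3, Ccl4, Ccl5, Ccl6, Ccl7, Ccl9, Ccl12 and Ccl22. They were chosen by name, as a gene family, and are 9 of the 55254 gene symbols in the count table. Their 9 genes had 16 annotated transcripts in the count table, of which 14 held at least 1 read. The libraries came from bone marrow-derived macrophages (BMDMs) of C57BL/6J mice, with 3 samples in each of 2 groups. The control group carried loxP-flanked hnRNPD alleles (hnRNPDfl/fl) and no Cre. The M-Δx3,4 group carried the same alleles together with LysCre, a Cre recombinase expressed from the lysozyme M promoter, which removes exons 3 and 4 of hnRNPD in myeloid cells. All cells of both groups were grown for 10 days in medium conditioned by L929 cells and then received 100 ng/ml LPS for 4 hours, so no resting macrophages are part of the comparison. Since only the M-Δx3,4 group carried the Cre, its presence and the loss of the hnRNPD exons cannot be told apart. The labels do not say whether the 3 samples of a group came from separate mice, and the p-values then measure only the spread between these samples.

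CC chemokines are small secreted proteins with adjacent cysteines near their amino terminus. They bind receptors coupled to G proteins and direct the migration of monocytes, lymphocytes, granulocytes and dendritic cells into inflamed tissue. Macrophages that sense LPS through Tlr4 transcribe many of these genes within hours, and the resulting mRNAs are often short-lived. AUF1, the product of hnRNPD, is an RNA-binding protein known to bind AU-rich elements in the 3′ UTRs of such mRNAs, and the study asked which macrophage mRNAs depend on it.

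The pentamer ATTTA, the core of an AU-rich element, was searched on the sense strand of the annotated 3′ UTR of the most abundant transcript of each gene, overlapping matches included. It was present in 8 of the 9 genes and absent from the 199-base 3′ UTR of Ccl5. Across 11892 genes, 69.6% of the 3′ UTRs, of any length, held it. Of the genes with a 3′ UTR at least as long as that of Ccl5, 35.4% held it in their last 199 bases. The longer motif TTATTTATT was found in none of the 9 and in 8.12% of all genes. Ccl12 had 5 pentamers in only 167 bases, and 0.108% of the genes with a 3′ UTR of at least this length held as many in their last 167 bases. Ccl3 had 5 in 409 bases, which 0.904% of the genes reached in a stretch of that length. For Ccl2, with 1 pentamer, and Ccl4, with 2, these shares were 42.5% and 15.7%. The stretches of 30 bases printed here hold pentamers, in capitals, of Ccl12 and Ccl3, where they are densest, and of Ccl2, where the pentamer is single. They were read from GENCODE transcripts on GRCm38 (mm10), 5′ to 3′ on the strand of the gene, at chr11:82103325-82103354 (plus strand) for Ccl12, chr11:83648075-83648104 (minus strand) for Ccl3 and chr11:82037206-82037235 (plus strand) for Ccl2. A match is a stretch of letters and does not show that a protein binds there.
Ccl12: ATTTAaacaaacttgcttaaataatATTTA
Ccl3: ttgaaattttATTTAATTTAatcctattgg
Ccl2: aatattaaacttATTTAacttattgatgtt

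Reads were counted from the 3′ ends of mRNAs, and counting 1 transcript for each gene the libraries held 2503125 to 3846215 reads. Across 4723 genes, library correlations ran from 0.764, between control replicates 1 and 3, to 0.971, between control replicate 1 and M-Δx3,4 replicate 3. They were 0.764 to 0.904 between controls and 0.950 to 0.952 between M-Δx3,4 libraries, so that the control group was the more variable. The highest value thus lay between the groups and not within one. The targeted gene, by its p37 transcript, had 177.8, 104.2 and 69.6 normalized counts (reads scaled for the depth of the library) in the controls and 52.8, 12.6 and 16.0 in the M-Δx3,4 libraries, in the order of the replicates (log2 fold change -2.11). Its most abundant transcript, whose counted region includes reads of the p37 one, had 335.9, 185.9 and 104.4 against 137.9, 124.3 and 160.5 (log2 fold change -0.57, unadjusted p = 0.183), and there the groups overlapped. Reads of 4 Y-linked genes summed to 1, 32 and 3 in the controls, against 32, 56 and 74 in the M-Δx3,4 group. Of the lists of cell markers, all 9 macrophage markers were detected, with summed levels of 6492.2 to 7105.0 in control and 5465.9 to 7158.2 in M-Δx3,4 macrophages. Those of 8 neutrophil markers were 242.1 to 606.7 and 394.3 to 553.5, almost all from S100a8, S100a9, Camp and Ltf. Ly6g, Mpo and Retnlg had at most 1.2 in any library, and Elane had 0. Summed levels of 6 markers of mast cells and basophils were at most 3.1, with 5 of the 6 at 0.

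The 9 genes together made up 0.35%, 0.385% and 0.6% of the reads of the control libraries and 0.522%, 0.461% and 0.421% of those of the M-Δx3,4 libraries, and the groups overlapped (exact permutation test, two-sided, p = 0.9). This test cannot give a p under 0.1 with 3 libraries against 3. Of the 9 genes, each taken by its most abundant transcript, in M-Δx3,4 macrophages 6 stood higher and 3 lower than in the controls, with a median log2 fold change of 0.05 against -0.01 for all 11873 genes tested. Only Ccl5 had an unadjusted p under 0.05 (quasi-likelihood test of edgeR), 1 of 9, where 3.98% of all genes tested had one and 2.53% had one in the lower direction. Ccl5 was also the only gene of the 9 with no overlap between the control and M-Δx3,4 libraries, against 8.44% of all genes, or 4.25% for those lower in M-Δx3,4. Of the 13 member transcripts tested, 2 had an unadjusted p under 0.05, the other being a short transcript of Ccl9, against 4.13% of all 32475 transcripts and 2.54% in the lower or 1.59% in the higher direction. The same 2 were the member transcripts without overlap between the groups, against 8.88% of all transcripts. None of the 13 passed an adjusted p of 0.05, and the smallest was 0.984 (quasi-likelihood test of edgeR, adjusted by Benjamini-Hochberg). Over all transcripts 0 passed it in edgeR, where 1340 had an unadjusted p under 0.05, 0 passed it in limma-voom and 4 in DESeq2. In edgeR 118 passed it with no filter on low counts and 55 without control replicate 1, none of them a chemokine transcript.

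**Figure D1:**
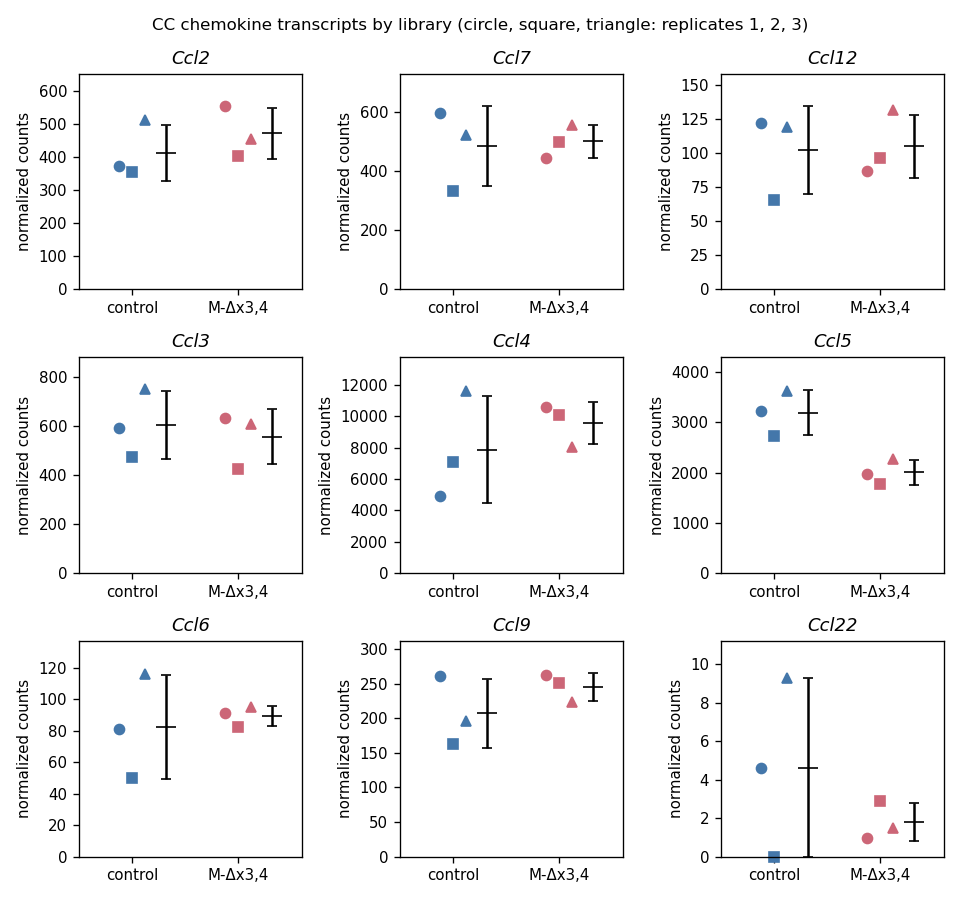
Normalized counts (vertical axes, each starting at 0) of the 9 CC chemokine genes in the 3 control (blue) and 3 M-Δx3,4 (red) libraries, with circles, squares and triangles for replicates 1, 2 and 3 and a black bar for the mean ± SD. The groups overlap in 8 of the 9 panels, and in that of Ccl5 the M-Δx3,4 libraries (1770.2 to 2259.7) lie under the control libraries (2720.8 to 3619.7).

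Ccl5 (ENSMUST00000035938), known as RANTES, attracts T cells and monocytes. Its 3′ region was counted at chr11:83525529-83525976 (mm10, minus strand). The control libraries held 3232.3, 2720.8 and 3619.7 normalized counts of Ccl5 and the M-Δx3,4 libraries 1976.9, 1770.2 and 2259.7. Each M-Δx3,4 library thus lay under all controls. The means were 3190.9 ± 450.9 and 2002.3 ± 245.8 (SD, n = 3), a level 37.2% lower in M-Δx3,4 macrophages and a log2 fold change that came to -0.67 (standard error 0.29, 95% interval -1.29 to -0.06, unadjusted p = 0.0337 and adjusted p = 0.984 in the quasi-likelihood test of edgeR). The exact permutation test, two-sided, gave p = 0.1, the smallest it can give here. Leaving out control replicate 3 or any of the 3 M-Δx3,4 replicates took the unadjusted p past 0.05 (0.0546 to 0.118), while the log2 fold change stayed between -0.78 and -0.56 whichever library was left out.

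Some measures moved with the groups as Ccl5 did. Lyz2, a macrophage marker and the gene whose promoter drives the Cre, had 1992.1, 1788.0 and 2200.8 normalized counts in control and 1342.0, 881.7 and 968.2 in M-Δx3,4 macrophages. Of the 9 macrophage markers, 4 were higher and 5 lower in M-Δx3,4 macrophages. Lyz2 alone of them had an unadjusted p under 0.05 (quasi-likelihood test of edgeR), against 3.98% of all genes. The summed level of 7 B cell markers was 326.6 to 367.8 in control and 143.7 to 173.1 in M-Δx3,4 macrophages. Among them Igkc, an immunoglobulin light chain gene, had 234.6 ± 15.1 in control and 79.3 ± 18.4 in M-Δx3,4 macrophages. Whether the levels of Lyz2 or of the B cell markers bear on the lower level of Ccl5 was not tested. T and NK cells also express Ccl5, and the sum of 7 of their markers was 5.8 to 37.2 in control and 11.7 to 26.2 in M-Δx3,4 macrophages, with Cd3e, Cd3g, Nkg7, Klrb1c and Gzmb at 0 in every library. In bulk RNA, fewer cells of a type and less RNA per cell cannot be told apart. Control replicates 1 and 3 also had the fewest Y-linked reads, and the part of this in the level of Ccl5 was not tested. With both removed, a comparison chosen after seeing the data that leaves 1 control library, the log2 fold change of Ccl5 was -0.44 (unadjusted p = 0.22, quasi-likelihood test of edgeR).

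Ccl3 and Ccl4, the macrophage inflammatory proteins MIP-1α and MIP-1β, attract monocytes and lymphocytes. Ccl4 (ENSMUST00000019074) was the most abundant of the 9 mRNAs, with 4914.1, 7106.9 and 11631.7 normalized counts in the controls and 10590.6, 10111.3 and 8053.2 in the M-Δx3,4 libraries. Control replicate 3 was the highest of all 6 and control replicate 1 the lowest, and the M-Δx3,4 libraries lay between them. The log2 fold change of Ccl4 was 0.28 (standard error 0.33, 95% interval -0.42 to 0.98, unadjusted p = 0.404, quasi-likelihood test of edgeR). It rested on the control libraries, since it was 0.68 without control replicate 3 (unadjusted p = 0.028) and 0.03 without control replicate 1.

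Ccl3 (ENSMUST00000001008) had 589.3, 473.0 and 748.3 normalized counts in control and 629.9, 425.3 and 608.3 in M-Δx3,4 macrophages. Its groups overlapped, with a log2 fold change of -0.12 (95% interval -0.80 to 0.56, unadjusted p = 0.708). Its direction turned without control replicate 3, to 0.07, and without M-Δx3,4 replicate 2, to 0.04. The interval of Ccl3 leaves room for a decrease of the size of that of Ccl5. That of Ccl4 leaves room for an increase of this size but not for such a decrease.

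**Figure D2:**
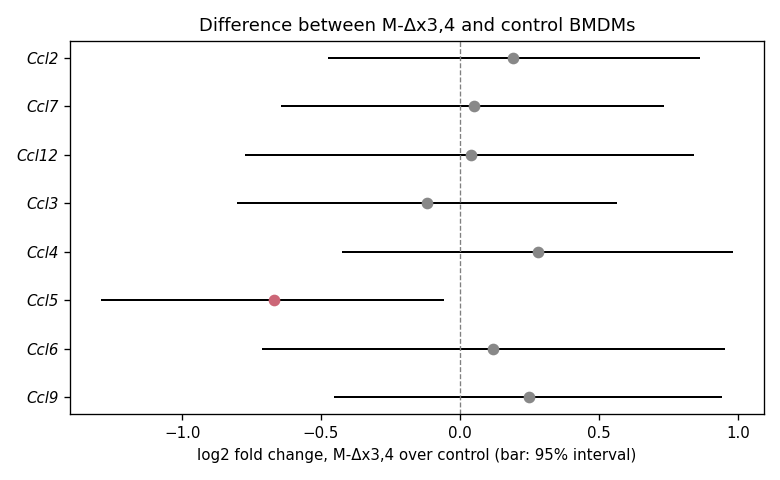
Log2 fold change of M-Δx3,4 over control BMDMs (horizontal axis) for 8 of the CC chemokine genes, with a point for the estimate, a line for its 95% interval and red for an unadjusted p under 0.05. The interval of Ccl5 (-1.29 to -0.06) lies under 0 and those of the other genes include 0. Ccl22 is left out because its reads were at or near the floor of 3.

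Ccl2, Ccl7 and Ccl12 are the monocyte chemoattractant proteins, ligands of Ccr2 that draw monocytes out of the bone marrow and into tissue. Ccl2 (ENSMUST00000000193) had 373.1, 354.5 and 511.6 normalized counts in control and 556.6, 403.9 and 456.2 in M-Δx3,4 macrophages. M-Δx3,4 replicate 1 was the highest library, and the other two M-Δx3,4 libraries lay within the range of the controls. The log2 fold change of Ccl2 was 0.19 (standard error 0.31, 95% interval -0.47 to 0.86, unadjusted p = 0.547, quasi-likelihood test of edgeR).

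Ccl7 (ENSMUST00000021011) had 598.6, 334.1 and 522.1 normalized counts in control and 446.0, 500.1 and 556.3 in M-Δx3,4 macrophages. All M-Δx3,4 libraries lay within the range of the controls, and the log2 fold change was 0.05 (95% interval -0.64 to 0.73). Ccl12 (ENSMUST00000000194) followed the same order of libraries in the M-Δx3,4 group, with 122.0, 65.4 and 119.5 normalized counts in control and 87.1, 96.1 and 131.4 in M-Δx3,4 macrophages, and a log2 fold change of 0.04 (95% interval -0.77 to 0.84). For both genes control replicate 2 was the lowest of all libraries, and without it the log2 fold changes were -0.16 and -0.20.

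Ccl6 and Ccl9 are ligands of Ccr1 that myeloid cells also make without LPS. Ccl6 (ENSMUST00000019071) had 81.4, 50.1 and 116.0 normalized counts in control and 91.0, 82.5 and 94.8 in M-Δx3,4 macrophages. The controls enclosed the M-Δx3,4 libraries, with a coefficient of variation of 40% against 7%, and the log2 fold change was 0.12 (95% interval -0.71 to 0.95). It was -0.14 without control replicate 2. Ccl9 (ENSMUST00000019266) had 261.5, 163.5 and 196.1 normalized counts in control and 263.1, 250.5 and 223.1 in M-Δx3,4 macrophages, and control replicate 1 alone reached the level of the M-Δx3,4 libraries. Its log2 fold change was 0.25 (95% interval -0.45 to 0.94, unadjusted p = 0.461, quasi-likelihood test of edgeR).

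**Figure D3:**
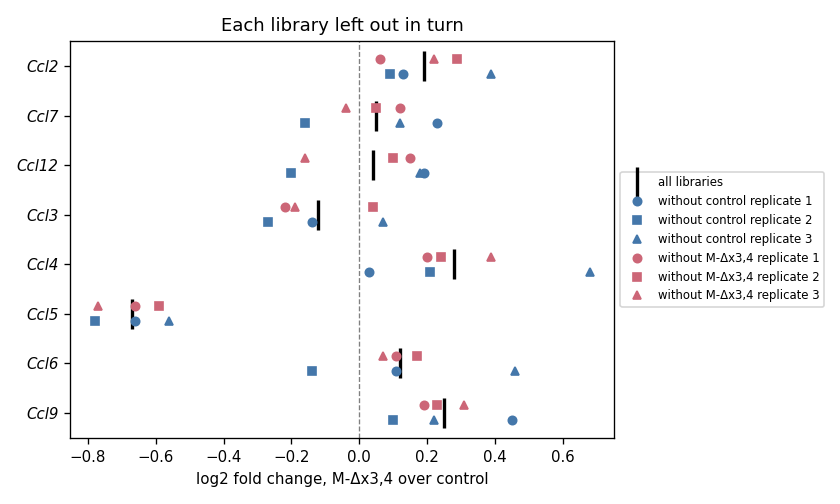
Log2 fold change of M-Δx3,4 over control BMDMs (horizontal axis) for 8 CC chemokine genes with all libraries (black bars) and with each library left out in turn (blue for a control and red for an M-Δx3,4 library left out). Ccl5 stays between -0.78 and -0.56, whereas Ccl3, Ccl6, Ccl7 and Ccl12 have estimates on both sides of 0.

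Ccl22, which attracts Ccr4-bearing T cells and is typical of dendritic cells and of macrophages exposed to IL-4, was barely detected. The reads of ENSMUST00000034231 numbered 4, 0 and 8 in the controls and 1, 3 and 2 in the M-Δx3,4 libraries, and a second transcript had none. At such counts a difference between the groups was not detectable. A sum of 6 dendritic cell markers was likewise low, 2.3 to 19.7 normalized counts in control and 6.9 to 10.7 in M-Δx3,4 macrophages, with Cd209a and Clec9a at 0.

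For 4 of the genes a second annotated transcript had been counted in a region of 249 bases that lies inside that of the main transcript, so that both hold the same reads there. In Ccl9 this inner region (ENSMUST00000136131, chr11:83575069-83575317, mm10, minus strand) covers bases 67 to 315 after the stop codon of a 3′ UTR of 2465 bases. It held 4, 0 and 1 reads in the controls and 14, 11 and 15 in the M-Δx3,4 libraries. Every M-Δx3,4 library was above every control library, whereas the groups overlapped in the whole of the gene. In normalized counts the inner region had 1.9 ± 2.4 in control and 11.9 ± 1.6 in M-Δx3,4 macrophages (SD, n = 3), a log2 fold change of 2.59 (standard error 0.90, 95% interval 0.66 to 4.52, unadjusted p = 0.0119 and adjusted p = 0.984 in the quasi-likelihood test of edgeR). The size depends on control libraries with 0 to 4 reads, and it was 4.17 without control replicate 1 and 1.99 without control replicate 2.

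As a share of the reads of Ccl9, the inner region took 1.78%, 0% and 0.592% in the controls and 5.2%, 4.26% and 5.14% in the M-Δx3,4 group (exact permutation test, two-sided, p = 0.1). The exact 95% binomial intervals, which cover counting error only, were 0.486% to 4.49%, 0% to 2.28% and 0.015% to 3.25% in control and 2.87% to 8.58%, 2.15% to 7.5% and 2.9% to 8.33% in M-Δx3,4 macrophages. The intervals of the groups thus overlap in part, although the shares do not. Taking 3 reads as the limit of a count of 0, which is one-sided and so lies under the two-sided interval, the 0 of 160 reads in control replicate 2 allow a share of up to 1.88%. The inner region holds no AATAAA, the signal for cleavage and polyadenylation, and its longest run of A is 4 bases. Both values cover the inner region alone, not the bases just downstream of it, so they cannot tell whether an mRNA ends nearby. In normalized counts, the part of Ccl9 outside it had 257, 163 and 195 in control and 249, 240 and 212 in M-Δx3,4 macrophages, and the groups overlapped.

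The inner regions of the other 3 genes did not separate the groups. That of Ccl2 took 66% to 78.1% of the reads of the gene in control and 66.8% to 76.9% in M-Δx3,4 macrophages, and that of Ccl6 67.1% to 82% and 65.3% to 84.9%. In Ccl12 the shares were 39%, 57.8% and 50.5% in control and 57.3%, 64.6% and 62.2% in M-Δx3,4 macrophages, and M-Δx3,4 replicate 1 was just under control replicate 2 (exact permutation test, two-sided, p = 0.2). The inner regions of Ccl2 and Ccl12 reach past the annotated end of the 3′ UTR, while that of Ccl6 lies within it, at bases 431 to 679 of 943.

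**Figure D4:**
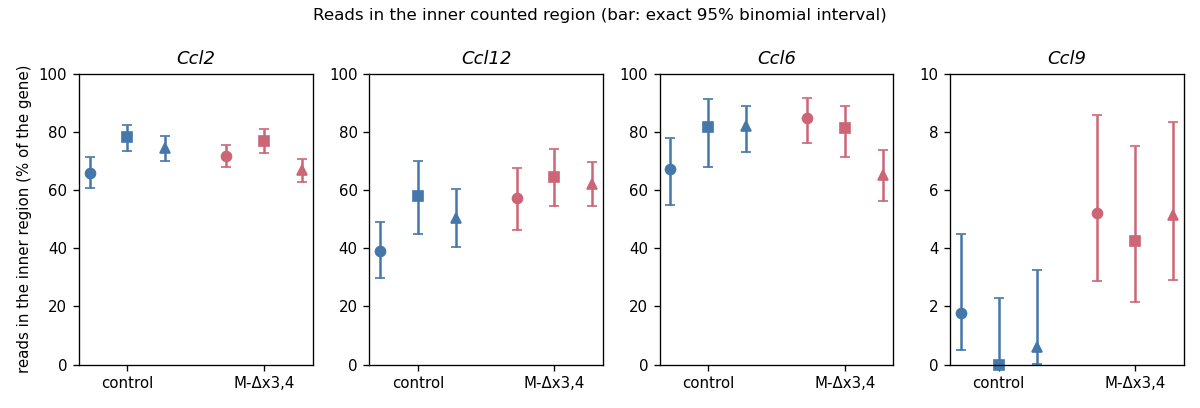
Share of the reads of Ccl2, Ccl12, Ccl6 and Ccl9 that fell in the inner counted region (vertical axes in percent, from 0 to 100 for the first 3 genes and from 0 to 10 for Ccl9), for each control (blue) and M-Δx3,4 (red) library with its exact 95% binomial interval. The Ccl9 shares are 0% to 1.78% in control and 4.26% to 5.2% in M-Δx3,4 macrophages, and the shares of the other genes overlap.

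Levels can be compared between genes per length, in the TPM values of the authors, although reads from 3′ ends do not grow with length. In TPM and as the mean of the 6 libraries, Ccl4 stood first with 1149.7 (range 690.5 to 1457.1), followed by Ccl5 with 422.3, Ccl3 with 64.3, Ccl2 with 61.7, Ccl7 with 52.8, Ccl12 with 18.2, Ccl9 with 6.11, Ccl6 with 5.26 and Ccl22 with 0.119. In this order 3 pairs of neighbours, Ccl3 with Ccl2, Ccl2 with Ccl7 and Ccl9 with Ccl6, had overlapping ranges, and the other neighbours did not. By normalized counts, which are not divided by length, 4 of the 9 genes took another rank.

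Ccl4 and Ccl5 together made up 80%, 87.2% and 87.3% of the reads of the 9 genes in the controls and 85.8%, 87.1% and 83.3% in the M-Δx3,4 libraries. Ccl5 alone took 31.8%, 24.1% and 20.7% in control and 13.5%, 13% and 18.2% in M-Δx3,4 macrophages, and each M-Δx3,4 library lay under each control library (25.5 ± 5.65% against 14.9 ± 2.9%, exact permutation test, two-sided, p = 0.1). The share of Ccl4 was 48.3%, 63.1% and 66.6% in control and 72.3%, 74.1% and 65% in M-Δx3,4 macrophages and overlapped. Ratios within a library need no scaling between libraries. The reads of Ccl5 per read of Ccl3 were 5.49, 5.75 and 4.84 in control and 3.14, 4.16 and 3.71 in M-Δx3,4 macrophages, and those per read of Ccl2 were 8.66, 7.67 and 7.07 and 3.55, 4.38 and 4.95. Both ratios separated the groups (exact permutation test, two-sided, p = 0.1 for each). These ratios were chosen after the values of Ccl5 had been seen and carry the same difference, so they are a description of it on another scale.

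**Figure D5:**
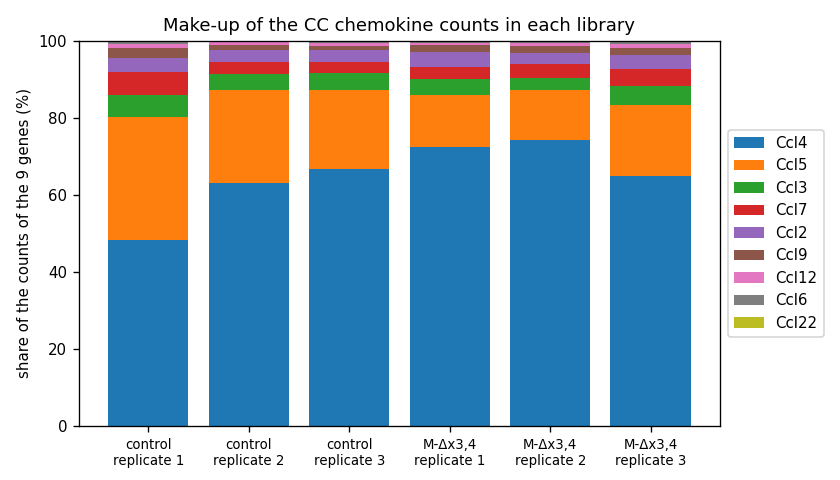
Share of the reads of the 9 CC chemokine genes taken by each gene (vertical axis in percent, stacked to 100) in each of the 6 libraries. Ccl4 and Ccl5 make up 80% to 87.3% of every bar, and the Ccl5 segment takes 20.7% to 31.8% in control and 13% to 18.2% in M-Δx3,4 macrophages.

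Across the 6 libraries the 8 genes whose mean exceeded 50 normalized counts did not follow one pattern. Over these 6 points, which share the difference between the groups and the depth of each library, the correlation of log2 normalized counts was highest for Ccl7 with Ccl12 (Pearson r = 0.96), followed by Ccl6 with Ccl12 (0.79) and Ccl2 with Ccl6 (0.76). It was lowest for Ccl5 with Ccl9 (-0.42) and for Ccl4 with Ccl5 (-0.32). Among the 4722 other genes of at least this level, the pattern closest to that of Ccl5 was shown by Ahcy (0.983) and Cmtm3 (0.982), and that closest to Ccl4 by Fth1 (0.976), the ferritin heavy chain gene, and Nr1h2 (0.973). Ccl2 was closest to Vwa5a (0.986) and Arf4 (0.970), Ccl3 to Atp5g3 (0.982) and Tiam1 (0.976), Ccl6 to Snw1 (0.962) and Fpr2 (0.958), Ccl7 to Ngrn (0.972) and Mgat2 (0.968), and Ccl9 to Fbxl5 (0.981) and Itprid2 (0.973). Ccl12 was closest to Nipsnap3b (0.962) and, among all genes, next to Ccl7 (0.956). These are the highest values picked from 4722 genes over 6 libraries, where high values can arise between unrelated genes. Shared regulation was not tested.

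Of 15 CC chemokine receptor genes, 5 could be tested, and 0 of them had an unadjusted p under 0.05, with 1 higher and 4 lower and a median log2 fold change of -0.30. Ccrl2, an atypical receptor of the family, had a normalized count of 844.3 ± 155.6 in the controls and 654.0 ± 64.8 in M-Δx3,4 macrophages (log2 fold change -0.37, unadjusted p = 0.24, quasi-likelihood test of edgeR). Ccr2, the receptor of Ccl2, Ccl7 and Ccl12, had at most 13.9, and Ccr1 at most 2.3. Of 12 further CC ligands, 3 could be tested and 0 had an unadjusted p under 0.05 (median log2 fold change -0.12). The most abundant of them, Ccl8, had 31.1 ± 8.0 in control and 28.6 ± 8.6 in M-Δx3,4 macrophages, and Ccl24 had 3.6 ± 3.2 and 3.3 ± 1.5.

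Of 40 genes of LPS signalling, 2 were higher and 1 lower at an unadjusted p under 0.05, against 3.98% of all genes, with a median log2 fold change of -0.07. Rel, a subunit of NF-κB, had 133.7, 54.1 and 49.9 normalized counts in control and 183.9, 101.0 and 201.7 in M-Δx3,4 macrophages (log2 fold change 1.04). Tirap, an adaptor of Tlr4, had 46.5, 33.7 and 47.6 and 91.9, 57.3 and 87.1 (0.89), and its groups did not overlap, as in 8.44% of all genes. Those of Traf3, which was higher, and of Nfkbie, Irf7 and Stat2, which were lower, did not overlap either. Nfkb2, another subunit of NF-κB, had 103.4, 143.0 and 385.2 and 113.5, 81.6 and 110.8 (-1.04), and its control mean rested on replicate 3. A list of 12 genes for proteins that bind or act on AU-rich mRNAs includes the targeted gene, Hnrnpd, by its most abundant transcript. That transcript was not under the threshold (log2 fold change -0.57), whereas the p37 transcript, not used in the list, had -2.11. Of the 12 genes, 1 was higher and 0 lower at an unadjusted p under 0.05, again against 3.98% of all genes (median log2 fold change 0.13). It was Elavl1, which codes for the stabilizing protein HuR, with 163.9, 165.5 and 243.6 normalized counts in control and 330.6, 336.0 and 298.8 in M-Δx3,4 macrophages (log2 fold change 0.75, unadjusted p = 0.0341 and adjusted p = 0.984 in the quasi-likelihood test of edgeR). Zfp36l1, which codes for a destabilizing protein of the tristetraprolin family, had 11.6, 13.3 and 7.0 in control and 23.5, 17.5 and 16.0 in M-Δx3,4 macrophages (log2 fold change 0.82, unadjusted p = 0.132). The groups of Elavl1 and Zfp36l1 did not overlap, again against 8.44% of all genes. Those of Khsrp, of the same list, did not overlap in the other direction (23.0 ± 4.3 in control and 13.7 ± 3.9 in M-Δx3,4 macrophages, log2 fold change -0.74).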

How the data were processed

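The authors made 3′ mRNA libraries (QuantSeq) from total RNA, mapped the reads to mm10 with TopHat2 2.1.1 and Bowtie2 2.3.2 (versions per the submitters' notes) and counted them on extended 3′ UTR regions of Ensembl transcripts. Whether the counting used strand is not given in the sources used here. They deposited raw counts per region and TPM, which divide by region length. The authors' own comparison columns (fold changes, p-values) and 18 more columns holding values of single samples stayed unused.

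Counts of the regions of a transcript were summed, normalized by the median of ratios (RLE) and kept where 1 or more libraries exceeded 4.89, the median normalized count. The groups were compared by edgeR 4.0.16 (R 4.3.3) with a quasi-likelihood test and Benjamini-Hochberg adjustment over 32475 transcripts. The standard error is the absolute log2 fold change over the square root of F. Genes are given by their most abundant transcript on average, and Hnrnpd also by that of p37. Single values were compared by an exact permutation test, and scipy gave the exact binomial intervals. The script was tested on simulated data. Alternatives were TMM, library totals, DESeq2 1.42.0, limma-voom (limma 3.58.1), other filters, 1 transcript per gene, a replicate block and each library left out. Sequences were read from GENCODE transcripts of the same build.

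Transcripts of 1 gene share reads and are not independent. The members and lists were chosen with earlier results of these data known. Genes named are the 9 chemokines, genes of the lists with p under 0.05 or with the 2 smallest p of a list, and for each chemokine with a mean above 50 the 2 genes most like it. Not every gene this rule names is reported here. Other genes named were chosen after their values were seen: Ccr1, Ccr2, Traf3, Nfkbie, Irf7, Stat2, Khsrp and the markers.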

Additional observations from a re-analysis of the deposited data

How the results depend on the processing

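With all libraries kept, each of the 8 genes other than Ccl22 kept its direction under every scaling, filter and tool, and the log2 fold change of Ccl5 was -0.67 to -0.65, with p from 0.0177 to 0.0511, the last with no filter (-0.67), which left 0 genes and 1 transcript of the chemokines past 0.05. With at least 10 counts in every library, or with 1 transcript per gene, 1 chemokine transcript passed, since the inner region of Ccl9 was not tested there, and in all other fits it passed (adjusted p 0.168 to 1, and 0.301 to 1 for Ccl5). Over all transcripts 2148 passed with no filter, 749 with filterByExpr, 628 with at least 10 counts, 463 with 1 transcript per gene and 771 to 4572 with each library left out, the highest without control replicate 1. DESeq2 called 1025 and limma-voom 1100.

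With each library left out, 1 to 2 chemokine transcripts and 0 to 1 genes passed. The log2 fold changes ran from -0.78 to -0.56 for Ccl5, 0.03 to 0.68 for Ccl4, -0.27 to 0.07 for Ccl3, -0.14 to 0.46 for Ccl6, -0.16 to 0.23 for Ccl7 and -0.20 to 0.19 for Ccl12. Of the genes in the lists of receptors, other ligands, LPS signalling and AU-rich binding proteins, 0 to 12 passed, the highest again without control replicate 1. With control replicates 1 and 3 both removed, chosen after seeing the data, Ccl5 was at -0.44 and Ccl3 at 0.23, and 1 chemokine transcript and 0 genes passed. The lone control is then assumed to vary like the other group. The cause was not tested.

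Same-numbered libraries deviated together in 1 of 3 pairs (correlations -0.21, 0.54 and -0.31). Control replicate 1 and M-Δx3,4 replicate 3 also had 0.54. With 3 libraries in each group, such correlations cannot tell whether the numbers pair the samples. With a replicate block, 2 genes of the lists passed in place of 4, 908 of all transcripts passed, and Ccl5 was at -0.67. By level, 4 genes changed rank with counts in place of TPM and 5 with the transcript of second highest mean count. The nonamer in place of the pentamer was found in 0 of the 9 genes. Depth limits Ccl22 and the inner region of Ccl9, where single reads decide the fold.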
